A study of Mus musculus with 18 samples.

Results

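Gene expression of the caput epididymis was compared between 3 libraries of C57BL/6J mice labelled 10% EtOH cessation and 3 libraries labelled 10% EtOH at 10 weeks. The libraries were chosen by these treatment labels alone and are 6 of the 18 in the series. The remaining 12 libraries came from mice given 6% EtOH and from controls given no ethanol, each collected at both times with 3 libraries per group. They entered the fit to share an estimate of the spread, and they show the same step between collection times at the other treatments. The series title puts the cessation at 1 month and sets these tissues beside sperm noncoding RNA and epididymal mitochondria. The comparison thus bears on what differs in the caput once ethanol has stopped. Neither the route of ethanol nor the ages of the mice nor the day of each collection is stated in the sources used here. The mice of the cessation group were both without ethanol and collected later, and these cannot be told apart within the 10% EtOH pair. Whole tissue was sequenced, so fewer cells of a type and less RNA per cell cannot be told apart either.

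The caput is the proximal segment of the epididymal duct, where sperm coming from the testis begin to mature. Its principal cells secrete proteins into the lumen in zones along the duct, among them lipocalins, cystatins, beta-defensins and the peroxidase Gpx5, and some of these zones depend on factors that arrive with testicular fluid. Immediate early genes are transcribed within minutes of a stimulus without new protein synthesis. They include the Fos and Jun proteins, which pair to form the transcription factor AP-1, the Egr and Nr4a transcription factors, and genes such as Dusp1, Zfp36 and Socs3 that switch the same signals off again. Handling, hypoxia and dissection of tissue are known to induce them as well as hormones and cytokines.

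The 3 libraries of 10% EtOH cessation held 15356097, 14000084 and 13345294 assigned reads, and the 3 of 10% EtOH at 10 weeks held 21067237, 15931405 and 18574346. Of 53819 gene entries, 18618 passed the filter on low counts. On the first principal component of the 6 libraries (39.5% of the variance) the groups overlapped: the cessation libraries lay at -43.7, 44.4 and 60.7 and the libraries of 10 weeks at -36.8, -42.9 and 18.4. On that component cessation replicate 1 lay beside replicates 1 and 2 of 10 weeks. On the second component (25% of the variance) the groups did not overlap, with the cessation libraries at 36.96, 7.07 and 33.8 and the libraries of 10 weeks at -4.79, -6.77 and -66.3. The sample name of replicate 3 of 10 weeks follows another pattern than those of its group, and this library stood apart in regional genes. Lcn5, a principal cell lipocalin, had 887 CPM (counts scaled to library size with TMM factors) in it and 5432 and 4699.6 CPM in replicates 1 and 2 of 10 weeks. Both libraries were kept, and results are also given without them where this changes a call.

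Few genes passed the test across all genes, and those that did were immediate early genes. Of 18618 genes, 4 (0.0215%) were called at an adjusted p under 0.05 with edgeR's quasi-likelihood test, and all 4 rose after cessation: Fos, Fosb, Nr4a3 and Socs3. All 4 are among the 37 tested members of the immediate early list. Without adjustment, 1708 genes (9.17%) had a p under 0.05, of which 858 (4.61%) were higher after cessation and 850 (4.57%) lower.

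Fos, the best known partner of Jun in AP-1, had 113, 72.4 and 86.95 CPM in the 10% EtOH cessation libraries, against 1.51, 0.671 and 2.01 CPM in the libraries of 10 weeks. The lowest cessation library thus lay far above the highest of 10 weeks. The log2 fold change was 6.00 ± 0.85 (SE; edgeR adjusted p = 0.0306). Fosb, a relative of Fos, had 51.8, 80.4 and 70.7 CPM after cessation, against 0.854, 0.805 and 0.354 CPM at 10 weeks, a log2 fold change of 6.63 ± 0.95 (edgeR adjusted p = 0.0306). Again no library of one group reached the range of the other.

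Nr4a3, an orphan nuclear receptor, is expressed at a low level and was called although its mean lay below the level set for naming genes. It had 4.65, 9.99 and 6.99 CPM after cessation, against 0.251, 0.268 and 0 CPM at 10 weeks, with a log2 fold change of 5.31 ± 0.78 (edgeR adjusted p = 0.0306). Socs3, the inhibitor that cytokine receptors induce against their own JAK and STAT signal, had 21.6, 40.4 and 20.1 CPM after cessation, against 1.56, 1.21 and 0.472 CPM at 10 weeks. Its log2 fold change was 4.64 ± 0.72 (edgeR adjusted p = 0.0457). Cessation replicate 2 was the highest library for both Nr4a3 and Socs3, and cessation replicate 1 was the highest for Fos.

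The size of these 4 differences did not rest on 1 library, while the calls were lost whichever library was left out. Leaving out each of the 6 libraries in turn kept the log2 fold change between 5.69 and 6.32 for Fos, 6.33 and 6.87 for Fosb, 4.75 and 5.74 for Nr4a3, and 4.24 and 5.04 for Socs3, but in each of these fits no gene passed, with a smallest edgeR adjusted p between 0.0667 and 0.503. In a fit to the 6 libraries alone 17 genes passed (0.103%), with DESeq2 90 passed (0.524%) and with limma voom 0. Without the low-count filter, 573 passed with edgeR over the 18 libraries. Below, edgeR means the fit over the 18 libraries after that filter, unless another fit is named.

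**Figure D1:**
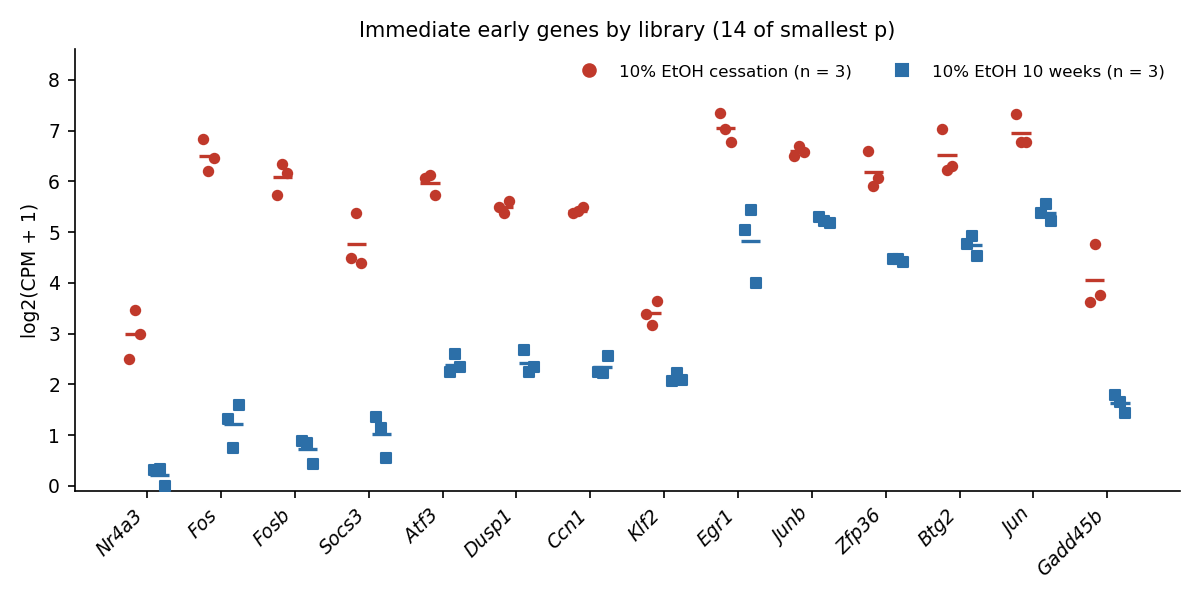
Level of the 14 immediate early genes of smallest p in each library, as log2(CPM + 1); circles are the 3 libraries of 10% EtOH cessation, squares the 3 of 10% EtOH at 10 weeks, and short lines the group means. In each of the 14 genes every circle lies above every square.

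The promoters of the 4 called genes are shown because the Fos promoter is a textbook site of rapid induction, and because the 4 genes moved together. Each sequence is the 250 bases before the start site, 5′ to 3′ in the sense of the gene, from RefSeq on GRCm38.p6 (the count tables were made on GRCm39). Capitals mark matches on either strand to the short cyclic AMP response element TGACG or to TATAAA. The AP-1 site TGANTCA and the CArG box bound by serum response factor were searched too and were not found in these windows. Bases further upstream were not searched, so motifs there would be missed. A palindromic response element holds TGACG on both strands, and such overlapping matches are counted separately.
Fos, chr12:85473640-85473889, plus strand: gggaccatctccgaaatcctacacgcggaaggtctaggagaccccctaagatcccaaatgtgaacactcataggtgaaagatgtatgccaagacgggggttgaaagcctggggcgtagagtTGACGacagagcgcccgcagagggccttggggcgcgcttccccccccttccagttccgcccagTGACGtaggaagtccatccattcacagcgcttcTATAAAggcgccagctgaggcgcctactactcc
Fosb, chr7:19310046-19310295, minus strand: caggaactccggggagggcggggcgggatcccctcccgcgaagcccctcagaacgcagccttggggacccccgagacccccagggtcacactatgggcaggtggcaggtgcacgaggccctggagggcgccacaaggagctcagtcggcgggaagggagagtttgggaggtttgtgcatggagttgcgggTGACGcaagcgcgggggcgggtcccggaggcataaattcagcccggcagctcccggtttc
Nr4a3, chr4:48045055-48045304, plus strand: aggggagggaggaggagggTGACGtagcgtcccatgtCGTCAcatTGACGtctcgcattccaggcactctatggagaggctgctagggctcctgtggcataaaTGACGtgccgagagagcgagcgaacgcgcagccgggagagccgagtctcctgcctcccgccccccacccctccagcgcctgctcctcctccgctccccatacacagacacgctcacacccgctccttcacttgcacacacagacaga
Socs3, chr11:117969367-117969616, minus strand: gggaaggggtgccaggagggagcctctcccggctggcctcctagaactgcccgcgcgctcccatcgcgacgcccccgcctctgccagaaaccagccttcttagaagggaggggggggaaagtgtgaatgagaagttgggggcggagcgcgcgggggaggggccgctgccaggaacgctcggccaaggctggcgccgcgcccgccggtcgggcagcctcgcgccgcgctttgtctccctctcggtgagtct

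The Fos window held TGACG at bases -129 and -66 from the start and TATAAA at base -33. The Fosb window held TGACG once, at base -60, and the Nr4a3 window 4 times. The Socs3 window held none of the 4 motifs. Over 250 bases before to 50 after the start, TGACG was found in 24 of 39 windows of the immediate early list (61.5%, 30 of its 38 genes having a window), against 20.8% of all 32851 promoter windows. A gene with several start sites has several windows, and the TGACG windows belong to 18 genes. The CArG box was found in 15.4% of the list's windows, which belong to 3 genes, against 1.63% of all, TATAAA in 15.4% against 13.6%, and the AP-1 site in 2.56% against 7.81%. These shares describe letters in the windows; binding was not measured.

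Of the 37 tested members of the immediate early list, the 4 called genes included, 34 had a log2 fold change above 0 (53.7% of all genes), and Egr2, Dusp5 and Dusp6 lay below 0. In the list, 24 were higher after cessation at an unadjusted p under 0.05 and 2 lower, against 4.61% and 4.57% of all genes. The groups did not overlap in 24 members that were higher and 2 that were lower, against 7.08% and 8.48% of all genes (15.6% in both directions). The median log2 fold change of the list was 1.30 (all genes 0.03). Atf3, a stress-induced repressor, had 65.8, 68.8 and 52.3 CPM after cessation, against 3.72, 5.03 and 4.07 CPM at 10 weeks, but its edgeR adjusted p was 0.0844. Dusp1, the phosphatase that switches off the MAP kinases p38 and JNK, had 44.3, 40.3 and 47.8 CPM after cessation, against 5.42, 3.76 and 4.07 CPM at 10 weeks (edgeR adjusted p = 0.105). Ccn1, a matricellular protein, had a log2 fold change of 3.35 ± 0.63 and the endothelial transcription factor Klf2 one of 1.53 ± 0.31 (edgeR adjusted p = 0.170 and 0.171). The groups did not overlap in these 4 genes either. All 4 passed with DESeq2 (adjusted p = 1.05e-06 for Atf3, 3e-05 for Dusp1, 0.000221 for Ccn1 and 0.00247 for Klf2). Atf3, Dusp1 and Ccn1 also passed in the edgeR fit to the 6 libraries alone, and Klf2 did not. None of them passed with limma voom.

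The remaining members are given by family, and were named after their values were seen. Among AP-1 genes, Jun had 159.9, 108 and 109 CPM after cessation, against 40.3, 45.9 and 36.2 CPM at 10 weeks, and Junb had 89.7, 103 and 94.1 CPM against 38.3, 36.4 and 35.1 CPM. The log2 fold changes were 1.62 ± 0.37 for Jun, 1.38 ± 0.30 for Junb and 1.17 ± 0.40 for Fosl2. Jun and Junb passed with DESeq2 and in the edgeR fit to the 6 libraries alone. With edgeR over the 18 libraries they passed only without the low-count filter. Fosl1 was barely detected, with 0, 10 and 2 counts in the cessation libraries and 0 in all 3 libraries of 10 weeks, so nearly all of its counts came from cessation replicate 2. The AP-1 genes already abundant at 10 weeks thus had smaller fold changes than Fos and Fosb, which were near 1 CPM there.

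Among the Egr zinc finger factors, Egr1 had 162, 129 and 109 CPM after cessation, against 31.8, 42.4 and 14.9 CPM at 10 weeks (log2 fold change 2.17 ± 0.45, edgeR adjusted p = 0.203). Egr3 was at most 1.39 CPM in all 6 libraries, with a log2 fold change of 2.18 ± 0.65. Egr2 did not share this pattern: it had 384, 276 and 230.3 CPM after cessation, against 379.6, 364 and 326 CPM at 10 weeks. Nr4a1 and Nr4a2, the other orphan receptors of the Nr4a family, had log2 fold changes of 1.04 ± 0.26 and 1.76 ± 0.63. None of these 5 genes passed with edgeR over the 18 libraries after the low-count filter. Without that filter Egr1, Nr4a1 and Nr4a2 passed. Egr1 (adjusted p = 0.000177) and Nr4a1 (0.0416) passed with DESeq2, and Nr4a1 also in the edgeR fit to the 6 libraries alone (0.0466).

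Feedback genes were divided. Zfp36, which destabilises cytokine mRNA, had 95.9, 58.6 and 65.5 CPM after cessation, against 21.1, 21.3 and 20.2 CPM at 10 weeks. Btg2 had 129, 73.8 and 77.9 CPM against 26.1, 29.5 and 22.01 CPM, and the stress gene Gadd45b 11.3, 26.1 and 12.6 CPM against 2.46, 2.15 and 1.71 CPM. Their edgeR adjusted p-values were 0.262 (Zfp36), 0.263 (Btg2) and 0.266 (Gadd45b). All 3 passed with DESeq2 and in the edgeR fit to the 6 libraries alone. Dusp6 and Dusp5, phosphatases for ERK, lay the other way. Dusp6 had 118, 114 and 77.5 CPM after cessation, against 160.3, 159.9 and 179 CPM at 10 weeks (log2 fold change -0.69 ± 0.25, edgeR adjusted p = 0.455), and Dusp5 had a log2 fold change of -0.55 ± 0.23 (edgeR adjusted p = 0.501). In both, the cessation libraries all lay below those of 10 weeks.

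The 4 called genes also had higher means in the later group of mice that had no ethanol, where Nr4a3 and Socs3 were called and Fos and Fosb were not. Fos averaged 90.8 ± 20.6 CPM after cessation and 1.39 ± 0.674 CPM at 10 weeks with 10% EtOH, 139 ± 24.4 and 1.40 ± 0.162 CPM with 6% EtOH, and 72.7 ± 40.5 and 8.79 ± 11.8 CPM in controls (SD, n = 3 each). Socs3 averaged 27.3 ± 11.3 and 1.08 ± 0.554 CPM with 10% EtOH, 54.6 ± 13.7 and 1.13 ± 0.0742 CPM with 6% EtOH, and 38.2 ± 29.0 and 1.47 ± 1.62 CPM in controls. The later group was higher at each treatment, and the spread among the later controls was wide.

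With the same test, 35 genes (0.188%) passed between the times with 6% EtOH and 22 (0.118%) in controls, all of them higher in the later group. The 3 pairs share no library but share the estimate of the spread. All 4 genes called with 10% EtOH were among the 35 of 6% EtOH, and 2 of them, Nr4a3 and Socs3, were among the 22 of controls, where Fos had an edgeR adjusted p of 0.0866 and Fosb one of 0.0534. The median of the immediate early list was 1.30 with 10% EtOH, 2.31 with 6% EtOH and 1.86 in controls. Across the 18618 genes, which share their libraries within each pair, the 10% EtOH change had a Pearson correlation of 0.539 with the 6% EtOH change and 0.392 with the control change.

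Whether the 10% EtOH change differed from the control change was tested as an interaction. No gene passed with edgeR (smallest adjusted p 0.645; 1386 genes, 7.44%, at an unadjusted p under 0.05), none with limma voom, and 2 (0.0107%) with DESeq2. Fos had a difference of 2.94 ± 1.04 on the log2 scale (unadjusted p = 0.0129, edgeR adjusted p = 0.645), Fosb 2.33 ± 1.20, Nr4a3 -0.47 ± 1.28 and Socs3 -0.08 ± 1.02. The standard errors leave room for differences of several-fold in these 4 genes, so a like response at both treatments was not shown.

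**Figure D2:**
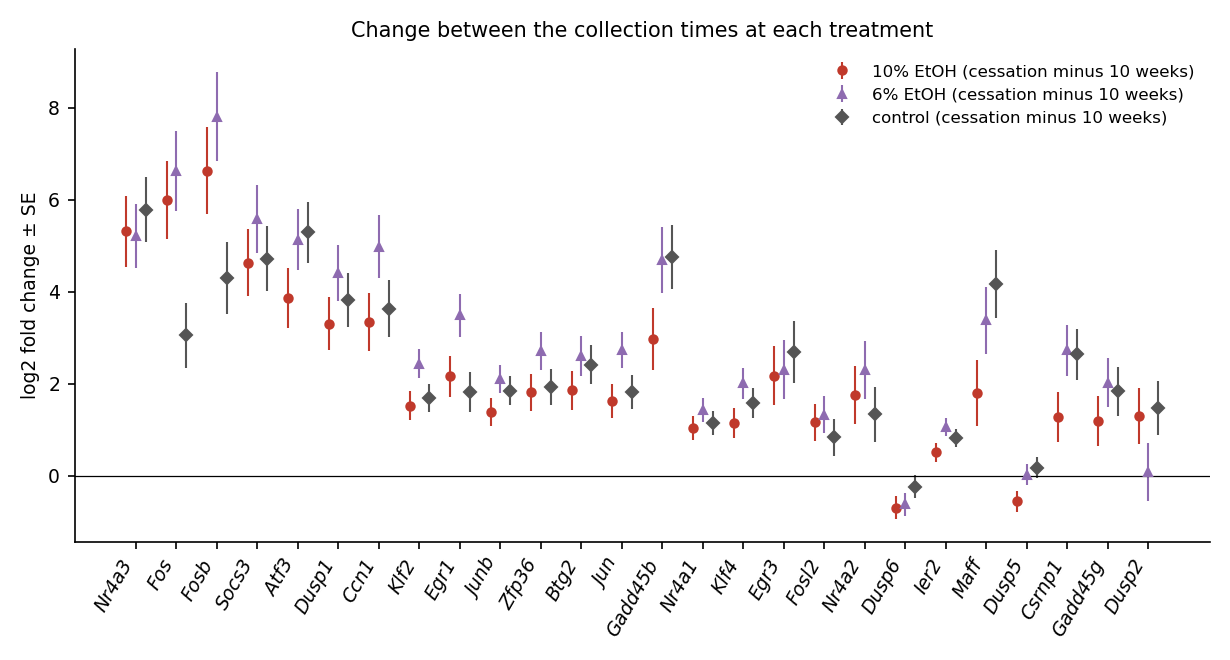
Log2 fold change between the collection times (cessation minus 10 weeks) with 10% EtOH, 6% EtOH and no ethanol, for the 26 immediate early genes with an unadjusted p under 0.05 in the 10% EtOH pair; bars are the standard errors implied by the edgeR test. Of the 26, Dusp6 lies below 0 at each treatment, and Fos shows the widest gap between 10% EtOH and control among the 4 called genes.

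Cytokine genes of acute inflammation were higher after cessation in most libraries. None was called with edgeR over the 18 libraries after the low-count filter. Of 26 tested members, 11 were higher at an unadjusted p under 0.05 and none lower (4.61% and 4.57% of all genes). Their median log2 fold change was 1.03, against 2.57 between the control groups. Il1b, the fever cytokine, had 3.32, 7.14 and 6.13 CPM after cessation, against 0.251, 0.805 and 0.472 CPM at 10 weeks (log2 fold change 3.46 ± 0.67, edgeR adjusted p = 0.170). It passed in the edgeR fit to the 6 libraries alone (adjusted p = 0.0408). Il6 had 0.664, 14.6 and 5.70 CPM after cessation and 0 CPM in the 3 libraries of 10 weeks, a level at least 116-fold higher against 3 counts over the group of 10 weeks, and at least 53.1-fold without cessation replicate 2. Sele, the adhesion molecule E-selectin that activated endothelium shows to leukocytes, had 1.33, 4.21 and 1.73 CPM after cessation and 0 CPM in the libraries of 10 weeks, at least 40.8-fold higher by the same floor and at least 26.2-fold without cessation replicate 2. The chemokine genes Ccl7 and Cxcl2 had log2 fold changes of 4.34 ± 1.11 and 3.60 ± 0.94.

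Cessation replicate 1 was the lowest of the cessation libraries for Il1b, Il6, Sele, Ccl7 and Cxcl2, and its mean level over the list was -0.21, against 0.96 and 0.64 in the other cessation libraries and -1.05, -0.97 and -0.87 in those of 10 weeks (log2 CPM centred over 18 libraries). Without that library and replicate 3 of 10 weeks, an alternative chosen after seeing the data, the median of the list was 1.74. With DESeq2, 5 members of the list passed, all higher (0.291% of all genes were higher by that test). With edgeR without the low-count filter, 11 of 27 passed, all higher, where 376 genes passed as higher in all.

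**Figure D3:**
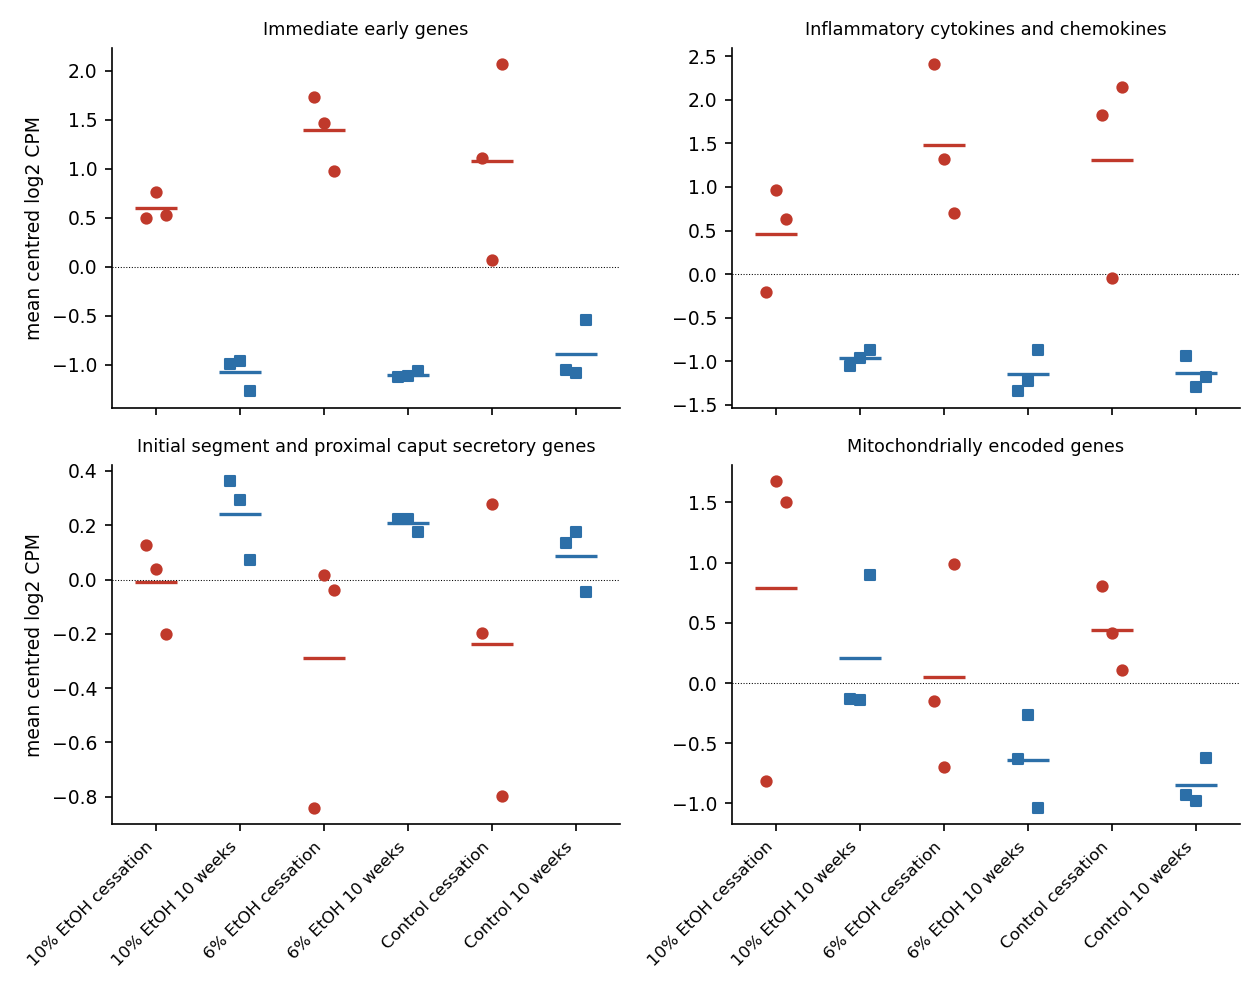
Mean level of 4 gene lists in each library, as log2 CPM centred over the 18 libraries and averaged over the tested members; red circles are libraries after cessation, blue squares libraries of 10 weeks, and lines the group means. Immediate early genes separate the times at each treatment, with -1.27 to -0.96 at 10 weeks against 0.49 to 0.76 after cessation with 10% EtOH. Mitochondrially encoded genes separate the times only in controls, with -0.98 to -0.62 at 10 weeks against 0.11 to 0.80 after cessation. With either ethanol dose their times overlap.

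Marker genes of other cell types were set beside these changes. Endothelial markers, with 13 of 13 tested, had a summed level of 129 to 159 CPM after cessation and 112 to 119.7 CPM at 10 weeks, so the groups did not overlap. Their median log2 fold change was 0.33 with 10% EtOH and 1.58 in controls, and none reached an unadjusted p under 0.05 with 10% EtOH. Vwf, the clotting factor stored in endothelium, had 25.02, 31.3 and 34.5 CPM after cessation, against 19.8, 18.05 and 21.8 CPM at 10 weeks. Smooth muscle markers (12 of 12 tested) had a median of 0.66, but their summed level, to which the actin gene Actg2 contributed most, was 1612 to 1875 CPM after cessation and 2036 to 2348 CPM at 10 weeks. The part of endothelium and muscle in the higher immediate early genes was not tested.

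Macrophage markers (19 of 19 tested) overlapped between the groups, with summed levels of 338 to 558 CPM after cessation and 360 to 561 CPM at 10 weeks and a median log2 fold change of -0.05. Of the markers of neutrophils and mast cells, S100a8, S100a9, Cxcr2 and Retnlg had 0 counts in all 6 libraries. Markers of T and NK cells (15 of 17 tested) were lower in sum, at 225 to 325 CPM after cessation and 469 to 648 CPM at 10 weeks, while their median log2 fold change was 0.25. Of the 15, 10 had a log2 fold change above 0 (53.7% of all genes). At an unadjusted p under 0.05, 2 were higher and 0 lower (4.61% and 4.57% of all genes). The groups did not overlap in 1 member that was higher and 2 that were lower (7.08% and 8.48% of all genes). Without the low-count filter, Klrb1c passed with edgeR as lower (log2 fold change -0.93, adjusted p = 0.000123). The fall in sum was thus not shared by most members. The part of T and NK cells in the other differences was not tested. Markers of B cells, 4 of 9 tested, ranged from 4.51 to 41.5 CPM after cessation and 5.02 to 25.6 CPM at 10 weeks in sum. Their median log2 fold change was 1.57, and 2 of the 4 were higher at an unadjusted p under 0.05 (4.61% of all genes). Red blood cell markers, 5 of 7 tested, had a median of 1.33 with all 5 above 0, none of them at that p, and summed to 29.5, 120.3 and 50.8 CPM after cessation and 18.4, 34.1 and 27.3 CPM at 10 weeks. The part of blood cells in the other differences was not tested. Ciliated cells of the efferent ducts (18 of 18 tested) had 101 to 105 CPM after cessation and 61.0 to 118 CPM at 10 weeks in sum, with the ciliary regulator Foxj1 at 9.49, 10.1 and 10.2 CPM against 2.21, 4.43 and 6.96 CPM. Of the markers of the vas deferens and accessory glands, the secretory genes Pbsn, Sbp, Svs2, Svs4, Svs5 and Svs6 had 0 counts in all 6 libraries.

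The principal cell markers were present in every library, and none of the 9 was undetected. Gpx5, the secreted glutathione peroxidase of the caput, had 36021, 41518 and 29770 CPM after cessation, against 46345, 49593 and 50756 CPM at 10 weeks (log2 fold change -0.45 ± 0.35, edgeR adjusted p = 0.713). Of the 27 pathway lists, that of secretory genes from the most proximal zones (initial segment, proximal caput) had the lowest median, -0.61, against -0.28 in controls and -0.49 with 6% EtOH. Of 29 tested members, 12 were lower at an unadjusted p under 0.05 and 1 higher, against 4.57% and 4.61% of all genes. In 16 members the cessation libraries all lay below those of 10 weeks, against 8.48% of all genes. None was called with edgeR, and the summed level was 93799 to 112830 CPM after cessation and 134990 to 150380 CPM at 10 weeks.

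Lcn8, a lipocalin carried into the lumen, had 4176, 4042 and 3289.6 CPM after cessation, against 6393, 6698 and 8802 CPM at 10 weeks (log2 fold change -0.93 ± 0.32, edgeR adjusted p = 0.434). Mfge8, a glycoprotein of the sperm surface, had 5015, 4236 and 3477 CPM after cessation, against 6848, 7144 and 9023 CPM at 10 weeks. Etv4, a transcription factor of the initial segment downstream of FGF and ERK signals, had 50.4, 43.4 and 41.8 CPM after cessation, against 75.9, 64.3 and 77.1 CPM at 10 weeks. Teddm1a, Ovch2 and Lcn2 had log2 fold changes of -0.98 ± 0.32, -0.94 ± 0.34 and -0.72 ± 0.27. In all 6 genes the groups did not overlap. Replicate 3 of 10 weeks was the highest library for each of them, and without it the list's median was -0.43.

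Genes of the distal caput and corpus differed in both directions. Of 14 tested, 3 were higher and 5 lower at an unadjusted p under 0.05 (4.61% and 4.57% of all genes), and none was called with edgeR. Ly6g5c had 749, 542 and 380 CPM after cessation, against 996, 1066 and 1149.6 CPM at 10 weeks, and the protease inhibitor Eppin 181, 147 and 118 CPM against 221, 245 and 235 CPM. Pate2 had 14.1, 3.31 and 47.8 CPM after cessation, against 5.22, 1.81 and 0.826 CPM at 10 weeks (log2 fold change 3.03 ± 0.82, edgeR adjusted p = 0.315, and 1.72 without cessation replicate 3). Lcn5 and Rnase9 were low in replicate 3 of 10 weeks: Rnase9 had 2734, 1302 and 1826 CPM after cessation, against 1503, 1124 and 115 CPM.

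Beta-defensins, antimicrobial peptides that coat sperm, also differed in both directions. Of 30 tested, 7 were higher and 3 lower at an unadjusted p under 0.05, against 4.61% and 4.57% of all genes, and none was called with edgeR. Defb25 had 1584, 1448 and 950.1 CPM after cessation, against 2397, 2451 and 3166 CPM at 10 weeks, and Defb48 1962, 1721 and 1303 CPM against 3075, 3027 and 3945 CPM. Defb23 had 126, 8.79 and 167 CPM after cessation, against 21.4, 14.8 and 0.708 CPM at 10 weeks, and Defb28 34.2, 3.46 and 54.4 CPM against 9.94, 5.97 and 1.89 CPM. In Defb23, Defb28 and Pate2, cessation replicate 2 lay within or beside the range of 10 weeks, so that replicates of the cessation group differed by many fold. Beta-defensins are a multigene family, and their counts are uncertain where reads match several copies.

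**Figure D4:**
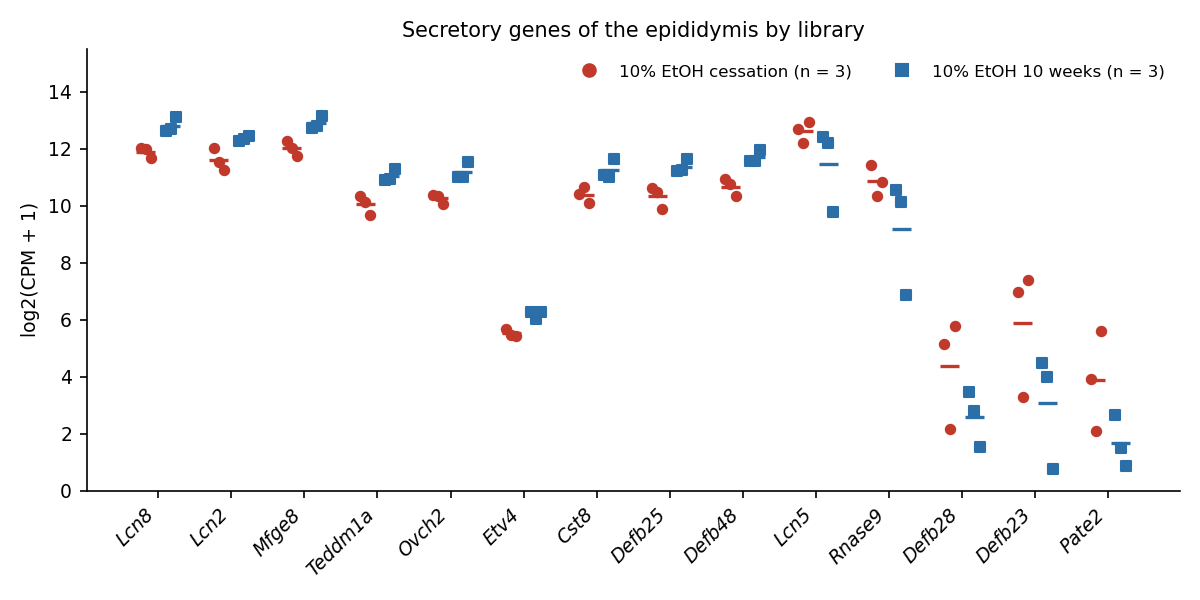
Level of 14 secretory and regional genes in each library, as log2(CPM + 1); circles are the 3 libraries of 10% EtOH cessation, squares the 3 of 10% EtOH at 10 weeks, and short lines the group means. From Lcn8 to Defb48 the circles lie below the squares, while Lcn5, Rnase9, Defb28, Defb23 and Pate2 are spread widely within a group.

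Mitochondrial transcripts, which the series title names as a subject, were uneven within the groups. All 14 tested genes of the mitochondrial genome had a log2 fold change above 0 with 10% EtOH (53.7% of all genes). Their median was 0.76 with 10% EtOH and 1.35 in controls. In controls 12 of the 14 were higher at an unadjusted p under 0.05, but with 10% EtOH none reached that p. With 10% EtOH their summed level was 11777 CPM in cessation replicate 1 and 53416 and 47052 CPM in the others of its group. At 10 weeks it was 17409, 16036 and 31150 CPM. Cessation replicate 1 was thus the lowest of the 6 libraries and the others of its group the highest. mt-Co1, a catalytic subunit of complex IV, had 4445, 19430 and 17000 CPM after cessation, against 6263, 5579 and 11237 CPM at 10 weeks (log2 fold change 0.82 ± 0.47). mt-Rnr2, the large mitochondrial ribosomal RNA, had 47.1, 2474 and 1648 CPM after cessation, against 94.0, 238 and 629 CPM at 10 weeks. The median ranged from 0.42 without cessation replicate 2 to 1.19 without cessation replicate 1.

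Few nuclear genes of the respiratory chain differed at an unadjusted p. Of 38 complex I subunits, 3 were lower at an unadjusted p under 0.05 and none higher (median log2 fold change -0.14), and of 43 genes of complexes II to V 2 were lower, with a median of -0.14; 4.57% of all genes were lower at that p, so these shares are near the background. Ndufs5, a complex I subunit, had 23.8, 22.6 and 23.5 CPM after cessation, against 30.9, 34.1 and 29.7 CPM at 10 weeks (log2 fold change -0.44 ± 0.14, edgeR adjusted p = 0.396). Among 77 mitochondrial ribosomal proteins 7 were lower and none higher, with Mrps6 at a log2 fold change of -0.51 ± 0.15, and among 25 fatty acid oxidation genes 3 were lower (median -0.23). Cpt1a, the carnitine transferase that admits long-chain fatty acids, had -0.54 ± 0.26 and did not reach that p. Cytosolic ribosomal proteins had a median of 0.01. The nuclear and mitochondrial genes of the chain thus had medians of opposite sign. No member of these lists was called after the low-count filter.

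Stress and metabolic lists had small medians. The unfolded protein response, the chaperones and sensors of the endoplasmic reticulum, had a median of -0.24 (-0.22 in controls). Of its 27 members, 25 lay below 0 and 2 above, where 53.7% of all genes lay above. At an unadjusted p under 0.05, 3 were lower (4.57% of all genes). In 11 members the cessation libraries all lay below those of 10 weeks (8.48% of all genes). Derl3, a channel for degradation of misfolded proteins, had 61.3, 41.4 and 35.7 CPM after cessation, against 63.2, 78.3 and 67.6 CPM at 10 weeks. The integrated stress response list was mixed, with the serine synthesis gene Psat1 at a log2 fold change of 0.93 ± 0.35, and 0.63 without replicate 3 of 10 weeks, and the amino acid transporter gene Slc3a2 at -0.54 ± 0.20. Heat shock genes had 1 member higher and 1 lower at an unadjusted p under 0.05.

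Cholesterol synthesis genes had a median of -0.36 with 4 of 22 lower at an unadjusted p under 0.05. Msmo1, a sterol oxidase of the pathway, had 124, 109 and 85.2 CPM after cessation, against 150.4, 128 and 191 CPM at 10 weeks. Cell cycle genes had a median of -0.38 with 7 of 30 lower and 1 higher, the mitotic kinase gene Cdk1 having 2.26, 1.20 and 1.59 CPM after cessation, against 2.41, 5.23 and 2.42 CPM at 10 weeks. For scale, 4.57% of all genes were lower at that p. None of these genes passed after adjustment with edgeR or DESeq2 after the low-count filter.

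No gene that handles ethanol was called with edgeR or DESeq2 after the low-count filter. Without that filter, where 573 genes passed in all, 1 passed with edgeR, Aldh3a1 (log2 fold change 2.70, adjusted p = 0.000197). Of 18 tested genes of ethanol and aldehyde metabolism, 1 was higher and 2 were lower at an unadjusted p under 0.05 (4.61% and 4.57% of all genes). Their median was -0.02. Aldh1a1, an aldehyde dehydrogenase that also makes retinoic acid, had 1281, 1099.8 and 964 CPM after cessation, against 1413, 1324 and 1324 CPM at 10 weeks (log2 fold change -0.28 ± 0.16, edgeR adjusted p = 0.623). Aldh3a2, which oxidises fatty aldehydes, had a log2 fold change of -0.42 ± 0.15 and Acss1, the mitochondrial acetate ligase, one of -0.45 ± 0.16 (edgeR adjusted p = 0.445 for both). Among 36 antioxidant genes, Gpx3, a secreted glutathione peroxidase, was the only one with an unadjusted p under 0.05. It had 221, 129 and 242 CPM after cessation, against 97.1, 100.1 and 67.3 CPM at 10 weeks, with a log2 fold change of 1.16 ± 0.38 (edgeR adjusted p = 0.434).

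No gene of small RNA biogenesis or of vesicles was called with edgeR after the low-count filter. The vesicle gene Cd9 passed with DESeq2 (adjusted p = 0.0402) and with edgeR without that filter (adjusted p = 0.0170). Small RNA biogenesis, 23 genes including the Argonautes and Dicer partners, had a median of 0.01, and Ddx17, a helicase of the microRNA processing complex, was the only member at an unadjusted p under 0.05 (log2 fold change 0.61 ± 0.26, edgeR adjusted p = 0.514). Of 24 genes of extracellular vesicles, the tetraspanin genes Cd9 and Cd63 were lower at that p, as were 4.57% of all genes. Cd9 had 183, 177 and 149.8 CPM after cessation, against 238, 266 and 297 CPM at 10 weeks (log2 fold change -0.65 ± 0.16, edgeR adjusted p = 0.279), and Cd63 had 380.1, 489 and 387 CPM against 555, 635 and 715 CPM. In controls, Cd9 and Cd63 had log2 fold changes of -0.01 and -0.03 between the times. Cftr, the chloride channel of the duct, had 84.2, 102 and 70.4 CPM after cessation, against 152, 149 and 277 CPM at 10 weeks (log2 fold change -1.17 ± 0.40, edgeR adjusted p = 0.442, and -0.82 without replicate 3 of 10 weeks).

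**Figure D5:**
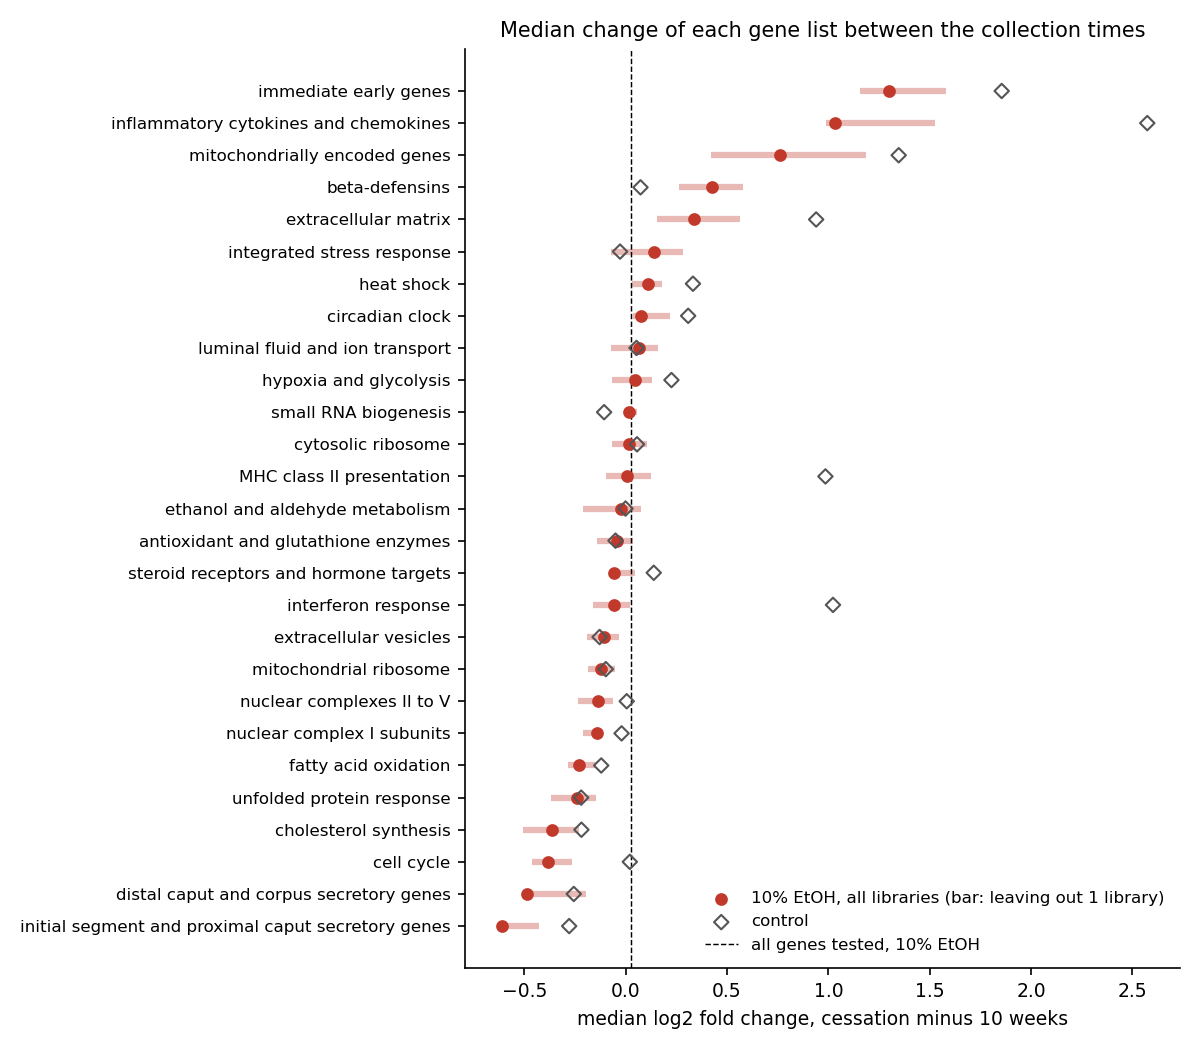
Median log2 fold change (cessation minus 10 weeks) of each of 27 gene lists with 10% EtOH, as filled circles with a bar for the range when 1 of the 6 libraries is left out, and in controls, as open diamonds; the dashed line is the median of all genes with 10% EtOH. Immediate early genes have the highest median with 10% EtOH and secretory genes of the initial segment the lowest, while the interferon and MHC class II lists are near 0 with 10% EtOH and near 1 in controls.

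Among the 12 genes of smallest p at a mean log2 CPM of at least 1, 7 were immediate early genes and 5 were not. These 5 did not pass with edgeR after the low-count filter. Lrp4, a cell surface receptor, had 113, 102 and 102 CPM after cessation, against 145, 153 and 179 CPM at 10 weeks (log2 fold change -0.59 ± 0.11, edgeR adjusted p = 0.170). Hgfac, the protease that activates hepatocyte growth factor, had 74.1, 61.7 and 54.3 CPM after cessation, against 111, 117 and 147 CPM at 10 weeks (-0.98 ± 0.20, adjusted p = 0.171). B4galnt4, a sugar transferase, and Itga6, the laminin-binding integrin of basal cells, had log2 fold changes of -0.84 ± 0.17 and -0.70 ± 0.14. Tchh, trichohyalin, had 27.8, 28.6 and 25.2 CPM after cessation, against 16.02, 14.02 and 11.9 CPM at 10 weeks (0.96 ± 0.20). With DESeq2 all 5 passed, as they did with edgeR without the low-count filter.

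These 5 genes had small values between the control groups: -0.02 for Lrp4, -0.14 for Hgfac, -0.10 for B4galnt4, 0.19 for Itga6 and -0.39 for Tchh. The differences from the control change were -0.56 ± 0.16, -0.84 ± 0.28, -0.75 ± 0.24, -0.89 ± 0.20 and 1.35 ± 0.28 in the same order, each with an edgeR adjusted p of 0.645, so none was called. The 5 genes of smallest p in that interaction were Fn1, Tchh, Apoc1, Itga6 and Zfp395. Fn1, fibronectin, had 40.7, 32.3 and 48.5 CPM after cessation, against 47.8, 54.7 and 46.5 CPM at 10 weeks with 10% EtOH, and rose between the control groups (log2 fold change 0.73 ± 0.13, edgeR adjusted p = 0.0417). Its difference was -1.02 ± 0.19 (edgeR adjusted p = 0.645; DESeq2 adjusted p = 0.0119). Apoc1, an apolipoprotein, had a difference of -1.52 ± 0.33. With DESeq2, Fn1 and Tchh were the 2 genes that passed.

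Immune lists also had different medians in the 10% EtOH pair and the control pair. Interferon response genes had a median of -0.06 with 10% EtOH and 1.02 in controls, and 11 of 32 had an unadjusted p under 0.05 for the difference, all 11 below 0 (7.44% of all genes reached that p, 3.79% below 0). On leaving out 1 library, the 10% EtOH median of this list ranged from -0.16 to 0.02. Macrophage markers had medians of -0.05 and 0.80, and 8 of 19 reached that p, all below 0; their 10% EtOH median ranged from -0.21 to 0.21 on leaving out 1 library. Genes of MHC class II presentation had medians of 0.01 and 0.99, and 3 of 11 reached it. With 10% EtOH, 6 of the 11 lay above 0 and 5 below, and 2 were lower and 0 higher at an unadjusted p under 0.05 (4.57% and 4.61% of all genes). H2-DMb2, a chaperone of peptide loading, had 49.8, 61.2 and 48.1 CPM after cessation, against 83.8, 82.98 and 101 CPM at 10 weeks with 10% EtOH (log2 fold change -0.75 ± 0.23, edgeR adjusted p = 0.384). H2-DMa passed with DESeq2 as lower (-0.68, adjusted p = 0.0476). In the edgeR fit without a low-count filter, H2-Ab1 passed as higher (0.66, adjusted p = 0.0222). The control libraries after cessation differed widely among themselves, with a biological coefficient of variation of 35.2%, against 27.7% in the 10% EtOH cessation group, and no gene of these lists passed the interaction test. In controls the mean centred level of the interferon list was -0.54 to 1.37 after cessation and -0.53 to -0.09 at 10 weeks, so the times overlapped. For macrophage markers it was -0.34 to 0.85 and -0.48 to -0.39, without overlap. For genes of MHC class II presentation it was -0.39 to 1.08 and -0.32 to -0.10, so the times overlapped. The control medians were not recomputed with 1 library left out.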

How the data were processed

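RNA from caput tissue (Qiagen RNeasy mini kit, Illumina HiSeq, per the labels' protocols) was processed by the authors with Trimmomatic, STAR and featureCounts on GRCm39, per the submitters' processing notes. Tool versions, annotation, strandedness and the handling of multiply matched reads were not given in the sources used here, so overlapping antisense genes and near-identical copies are uncertain. The authors deposited whole-number counts per gene, 1 table per library, with no normalization.

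From these counts, genes were kept with filterByExpr (minimum count 10, minimum total 15), scaled by TMM and tested with edgeR 4.0.16 (R 4.3.3; robust quasi-likelihood, two-sided) over all 18 libraries with 1 term per group. Genes were called at a Benjamini-Hochberg adjusted p under 0.05 over 18618 genes. Group differences are log2 fold changes with the standard error implied by the test. The common biological coefficient of variation was 25.4%. The labels do not state that replicates are separate animals, so p-values measure the spread between samples, which may be technical. Replicates were compared by chi-square per degree of freedom, which was at least 5.79 for each pair, so none was a repeat of the same library.

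Gene lists are described by counts and medians, without a test of their own. The genes and lists were chosen with earlier results of these data known. Named genes are the 12 of smallest p at a mean log2 CPM of at least 1, the 5 of smallest p in the interaction, and up to 6 per list; the further immediate early genes and Nr4a3 were added after their values were seen. Alternatives used RLE and upper quartile scaling, other filters, DESeq2 1.42.0, limma voom 3.58.1, fewer libraries and leave-one-out fits. The test was checked on simulated data with known changes.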

Additional observations from a re-analysis of the deposited data

How the results depend on the processing

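No paired analysis was possible because the replicate numbers only follow the order of deposit. The 4 calls of the 10% EtOH pair were kept as a count with RLE factors and upper quartile scaling, and 5 passed with a stricter filter. The count was 17 with only the libraries of the groups compared, 573 (376 higher, 197 lower) with no low-count filter, 90 (50 higher, 40 lower) with DESeq2, 0 with limma voom, and 0 to 0 with 1 library left out. Without the filter, lists with no call in the main fit held some. Initial segment and proximal caput genes had 3 higher and 12 lower, and beta-defensins 8 higher and 3 lower. Inflammatory cytokines and chemokines had 11 higher and 0 lower, and genes of the distal caput and corpus 4 higher and 4 lower. With both 10% EtOH 10 weeks replicate 3 and 10% EtOH cessation replicate 1 left out, chosen after seeing the data, 2 passed, Ighm and the entry U6, while Fos (log2 fold change 6.13, edgeR adjusted p = 0.0930), Fosb (6.49, 0.0930), Nr4a3 (4.99, 0.0909) and Socs3 (4.42, 0.0981) did not. The control pair had 22 calls, with 0, 1740, 993 and 3 for the groups compared only, no filter, DESeq2 and voom, and 0 (without Control 10 weeks replicate 2) to 2724 (without Control cessation replicate 2) on leaving 1 out. The 6% EtOH pair had 35, with 106, 1805, 419 and 10 in the same order, and 0 (without any 1 of the libraries of 10 weeks) to 88 (without 6% EtOH cessation replicate 3). The interaction had 0, with 385 without a filter, 2 with DESeq2 and 0 otherwise. The cause of these changes was not tested. Of the log2 fold changes of named genes recomputed under the alternatives, none changed sign. Depth limits genes such as Fosl1 and Egr3, which rest on few counts.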
